A study of Mus musculus with 6 samples.

Results

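The genes described are 33 mouse genes of cholesterol and fatty acid synthesis, with the factors that sense sterols and switch these genes on. They were taken as a named list, by gene symbol. All 33 were found among the 27179 gene identifiers of the count table, and all 33 had enough reads to be tested. Poly(A) RNA was sequenced from E14TG2a mouse embryonic stem cells (mESCs) that carry FLAG-tagged Trim71, an RNA-binding TRIM-NHL protein. The 2 groups were FLAG-Trim71 (R783H) mESCs, which have the R783H change in Trim71 that the series title calls hydrocephalus-causing, and FLAG-Trim71 mESCs without that change, labelled WT. Each group had 3 libraries, A, B and C. Both groups therefore carried the FLAG tag and the same genetic background, and both were grown on gelatin in medium with Lif, the inhibitors CHIR99021 and PD0325901 and a low share of fetal bovine serum. No label says whether the 3 libraries of a group came from separate clones or cultures, or how many clones carry R783H, so p-values measure only the spread between these libraries.

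Cholesterol is built from acetyl-CoA. The mevalonate pathway first joins acetyl units and converts them to isoprenoid diphosphates, and a second series of enzymes turns these into squalene, lanosterol and cholesterol. Fatty acids are built from the same acetyl-CoA, by acetyl-CoA carboxylase and fatty acid synthase, and are then elongated and desaturated. Both sets of genes are known targets of the SREBP transcription factors, encoded by Srebf1 and Srebf2. SREBPs are made as membrane proteins that SCAP carries from the endoplasmic reticulum to the Golgi, where proteases release the active part. INSIG proteins hold SCAP back when sterols are plentiful. The amount of SREBP mRNA therefore does not give the amount of active SREBP, which was not measured here.

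Promoter sequences are shown for 5 of the genes, to set genes that fell in R783H cells (Hmgcs1, Idi1 and Fasn) beside genes that rose (Srebf2 and Elovl6). RefSeq promoter windows on GRCm38.p6, of 250 bases before to 50 bases after an annotated start, existed for 26 of the 33 genes. The 200 bases before the start are printed 5′ to 3′ on the gene's own strand. Capitals mark TCACNCCAC, a form of the sterol regulatory element that SREBPs bind, and CCAAT, the box bound by NF-Y, on either strand. On the opposite strand CCAAT reads ATTGG.
Hmgcs1, chr13:119690151-119690350, plus strand: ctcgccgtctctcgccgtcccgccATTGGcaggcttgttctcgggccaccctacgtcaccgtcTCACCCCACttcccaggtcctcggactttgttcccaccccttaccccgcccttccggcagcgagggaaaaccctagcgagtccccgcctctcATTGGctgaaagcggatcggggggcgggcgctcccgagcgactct
Idi1, chr13:8885406-8885605, plus strand: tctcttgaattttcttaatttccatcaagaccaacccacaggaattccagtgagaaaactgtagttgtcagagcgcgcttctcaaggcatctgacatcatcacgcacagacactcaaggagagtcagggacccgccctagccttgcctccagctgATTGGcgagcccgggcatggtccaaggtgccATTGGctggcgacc
Fasn, chr11:120824548-120824747, minus strand: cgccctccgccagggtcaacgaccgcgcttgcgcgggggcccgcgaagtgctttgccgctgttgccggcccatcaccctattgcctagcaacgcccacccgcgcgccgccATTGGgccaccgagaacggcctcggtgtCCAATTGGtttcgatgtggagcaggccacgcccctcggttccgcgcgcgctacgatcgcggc
Srebf2, chr15:82147069-82147268, plus strand: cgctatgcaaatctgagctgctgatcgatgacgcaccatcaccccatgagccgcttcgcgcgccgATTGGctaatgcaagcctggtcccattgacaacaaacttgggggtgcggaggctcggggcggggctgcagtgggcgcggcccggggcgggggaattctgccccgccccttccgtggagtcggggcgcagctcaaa
Elovl6, chr3:129532186-129532385, plus strand: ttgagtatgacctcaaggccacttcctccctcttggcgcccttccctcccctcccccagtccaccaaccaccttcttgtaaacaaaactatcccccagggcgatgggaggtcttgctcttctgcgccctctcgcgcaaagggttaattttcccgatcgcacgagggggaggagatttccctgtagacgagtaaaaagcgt

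TCACNCCAC was found in the window of 1 of the 26 genes (3.85%), Hmgcs1, where it begins 137 bases before the start. It was found in 1.44% of the 27025 genes with a RefSeq window. CCAAT was found in 21 of the 26 genes (80.8%), against 41.1% of all genes with a window. The genes without CCAAT in any window were Acat2, Scap, Acaca, Fads2 and Elovl6. Of these, Elovl6 was called higher and the others were called lower. The GC box GGGCGG was found in 22 of 26 (84.6%), against 38.2% of all, and the E-box CACGTG in 5 of 26 (19.2%), against 8.09% of all. The 5 genes with CACGTG were Hsd17b7, Sc5d, Dhcr7, Insig1 and Scap, a set that holds genes called lower and a gene that was not called. In the Fasn sequence, CCAAT and ATTGG overlap by 2 bases. In the printed Elovl6 sequence neither motif was found. These matches are letters in a window and do not show binding. Other forms of the sterol regulatory element were not searched for, so a window without TCACNCCAC may still hold one. Both strands were searched for all 4 motifs. The set of all genes includes genes that these cells do not express.

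The libraries held between 20894277 (WT A) and 29079670 (R783H A) counts, the R783H libraries all being deeper than the WT libraries. A count of 3 corresponded to between 0.0998 and 0.149 CPM (counts scaled by library depth), which covers counting error only. CPM values below are scaled by edgeR's trimmed mean of M-values (TMM). A gene was called higher or lower in R783H at an adjusted p under 0.05 (quasi-likelihood test of edgeR, adjusted by Benjamini-Hochberg across the 14199 genes tested). The 2 groups differed widely, since 64.5% of all tested genes were called. Within R783H, library B stood apart from A and C: chi-square statistics per degree of freedom were 8.76 and 9.59 against A and C, and 1.94 between A and C. Trim71 itself was present in all libraries, at 151.7, 129.0 and 150.5 CPM in R783H A, B and C and 130.8, 131.2 and 159.4 CPM in WT A, B and C. The groups overlapped (log2 fold change 0.03, SE 0.08, adjusted p = 0.743), though with an offset for transcript length and GC content Trim71 was called lower (log2 fold change -0.27, adjusted p = 0.00190). These gene-level counts do not read the changed codon, so they do not check the genotype labels. All 10 naive mESC markers were tested, and their summed level was 7037 to 7107 CPM in R783H and 7280 to 7371 CPM in WT. Of the 10, Pou5f1, Nanog and Zfp42 were called lower and Tfcp2l1 and Tbx3 higher, with log2 fold changes from -0.36 (Zfp42) to 0.20 (Tbx3).

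Of the 33 genes, 21 were called lower in R783H (63.6%) and 4 higher (12.1%), and 8 were not called. Among all tested genes, 30.9% were called lower and 33.5% higher. The median log2 fold change of the 33 genes was -0.26, beside 0.03 for all tested genes. Together the 33 genes took 0.612, 0.643 and 0.628% of the counts of R783H A, B and C, and 0.689, 0.689 and 0.691% of those of WT A, B and C. The changes were modest: 7 of the 33 were called lower by at least 0.5 on the log2 scale (12.4% of all tested genes were) and 1 higher by at least 0.5 (17.8% of all tested genes were). The CPM of the groups did not overlap for 27 of the 33 (81.8%), against 68.1% of all tested genes. In bulk RNA, fewer cells that express a gene and less RNA per cell cannot be told apart.

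**Figure D1:**
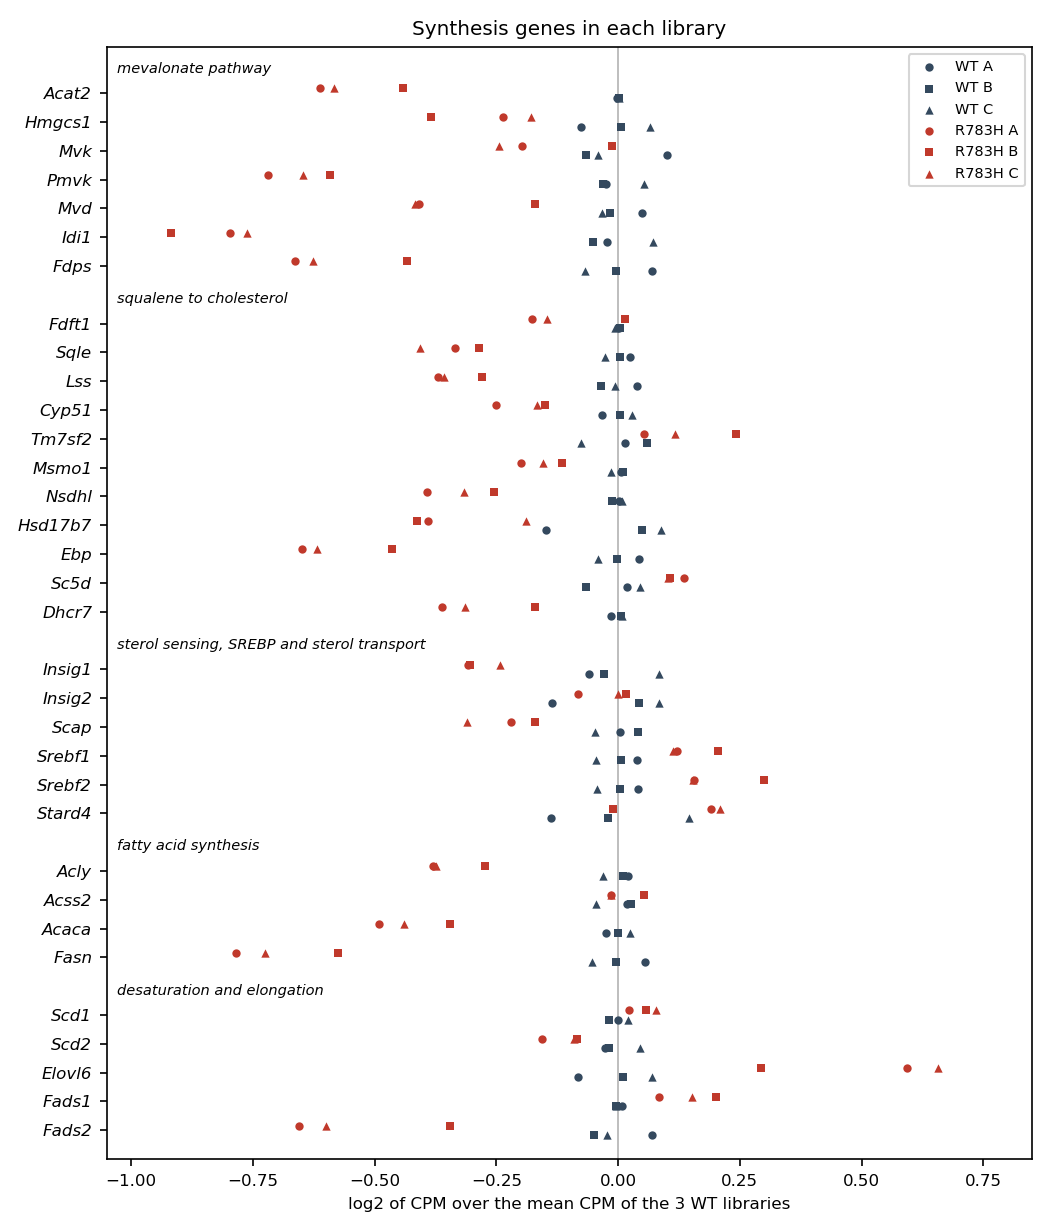
Each point is 1 library, and its position on the x axis is the log2 of its CPM over the mean CPM of the 3 WT libraries, for each of the 33 genes grouped by role. The R783H points (red) lie left of all WT points (blue) for the 21 genes called lower, with Idi1 farthest to the left, and the Elovl6 points of R783H A and C lie farthest to the right.

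All 7 genes of the mevalonate pathway had lower mean CPM in R783H. Of the 7, 6 were called lower (85.7%, beside 30.9% of all tested genes), with a median log2 fold change of -0.54. The summed level of the 7 genes was 546 to 573 CPM in R783H and 731 to 740 CPM in WT. Among the 18 genes of the mevalonate pathway and the squalene to cholesterol steps together, 14 were called lower (77.8%) and 0 higher. Of all tested genes, 30.9% were called lower and 33.5% higher. Tm7sf2 was called higher with scaling by library size alone and at equal depth, and Sc5d with library size alone. The count of genes called lower among these 18 ran from 12 to 16 over the 16 alternative settings tried.

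Idi1, the isomerase that interconverts the 2 isoprenoid diphosphates, had the largest change of these 7 genes. It was at 10.3, 9.48 and 10.6 CPM in R783H A, B and C and at 17.6, 17.3 and 18.8 CPM in WT A, B and C. It fell by 43.5% (log2 fold change -0.82, SE 0.08, adjusted p = 3.91e-06), and the groups lay far apart. Idi1 shares 323 nt of exon with Gm48574 on the opposite strand and has a near-identical copy, Gm13502, so its counts are uncertain. Pmvk, phosphomevalonate kinase, was at 32.9, 35.9 and 34.6 CPM in R783H and 53.3, 53.0 and 56.2 CPM in WT, a fall of similar size (log2 fold change -0.65, SE 0.05, adjusted p = 1.88e-06). Fdps makes farnesyl diphosphate, the branch point to sterols and to protein prenylation. It was at 69.8, 81.8 and 71.6 CPM in R783H and 115.9, 110.3 and 105.4 CPM in WT, and fell by 32.7% (log2 fold change -0.57, SE 0.06, adjusted p = 1.68e-05). R783H B was the highest R783H library for Fdps and still lay below every WT library.

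Acat2 encodes the cytosolic thiolase that joins acetyl-CoA units at the entry of the pathway. It was at 92.6, 104.2 and 94.4 CPM in R783H and 141.2, 141.6 and 141.6 CPM in WT (log2 fold change -0.54, SE 0.05, adjusted p = 4.34e-06). The WT libraries were almost equal, and the R783H libraries were all lower. Hmgcs1, the HMG-CoA synthase of the next step, was at 206.8, 186.7 and 215.3 CPM in R783H and 231.0, 244.7 and 254.9 CPM in WT. It fell by 16.7%, less than the genes above (log2 fold change -0.26, SE 0.06, adjusted p = 0.00213), and R783H B was its lowest library. It shares 458 nt of exon with Gm48342 on the opposite strand. Mvd, mevalonate diphosphate decarboxylase, fell by 0.33 on the log2 scale (SE 0.07, adjusted p = 0.00116). Mvk, mevalonate kinase, was not called (log2 fold change -0.15, SE 0.07, adjusted p = 0.0840), and R783H B, at 59.4 CPM, lay within the WT range of 57.3 to 64.3 CPM. Without R783H B, Mvk was called lower (log2 fold change -0.24, adjusted p = 7.52e-04).

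Of the 11 genes from squalene to cholesterol, 8 were called lower (72.7%, beside 30.9% of all tested genes). The other 3 were not called, and 0 were called higher, beside 33.5% of all tested genes. Over the alternative settings, the count called lower ran from 6 to 9. The count called higher ran from 0 to 2, reaching 2 with scaling by library size alone. The median log2 fold change of the 11 genes was -0.28. Their summed level was 836 to 905 CPM in R783H and 1012 to 1018 CPM in WT. Ebp, the sterol isomerase of the late pathway, had the largest fall of the 11, except with the length and GC offset, where Lss fell further (-0.60 against -0.55). It was at 43.2, 49.2 and 44.2 CPM in R783H A, B and C and at 69.8, 67.7 and 65.9 CPM in WT A, B and C (log2 fold change -0.58, SE 0.06, adjusted p = 7.79e-06). Sqle, the squalene epoxidase, was at 132.7, 137.1 and 126.2 CPM in R783H and 170.0, 167.6 and 164.1 CPM in WT. It fell by 21.1%, with a WT spread smaller than that of R783H (log2 fold change -0.34, SE 0.05, adjusted p = 5.54e-05).

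The other 6 called genes of these steps fell by between 0.16 and 0.34 on the log2 scale. Lss, which closes squalene epoxide to lanosterol, had a log2 fold change of -0.34 (SE 0.05). Nsdhl and Hsd17b7, 2 enzymes that remove the methyl groups of lanosterol, had log2 fold changes of -0.32 (SE 0.05) and -0.33 (SE 0.08). Dhcr7, the reductase of a final step to cholesterol, had a log2 fold change of -0.28 (SE 0.05). Cyp51, the lanosterol demethylase, and Msmo1, a methylsterol oxidase, fell least, by 0.19 (SE 0.05) and 0.16 (SE 0.04). With scaling by library size alone these 2 calls were lost (adjusted p = 0.0530 for Cyp51 and 0.122 for Msmo1).

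The 3 uncalled genes of these steps were Fdft1, Tm7sf2 and Sc5d. Fdft1, squalene synthase, was at 127.7, 145.9 and 130.6 CPM in R783H and 143.8 to 144.9 CPM in WT, so that only R783H B lay above the WT libraries (log2 fold change -0.10, SE 0.05, adjusted p = 0.121). Without R783H B, Fdft1 was called lower (log2 fold change -0.18, adjusted p = 2.87e-04). Fdft1 also shares up to 774 nt of exon with Ctsb on the opposite strand. Tm7sf2, a sterol reductase, had a log2 fold change of 0.14 (SE 0.07, adjusted p = 0.0837) and shares 532 nt of exon with Vps51 on the same strand. Sc5d, the lathosterol desaturase, was at 33.8 to 34.6 CPM in R783H and 30.1 to 32.5 CPM in WT, groups that did not overlap, but it missed the threshold (log2 fold change 0.12, SE 0.06, adjusted p = 0.0883).

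**Figure D2:**
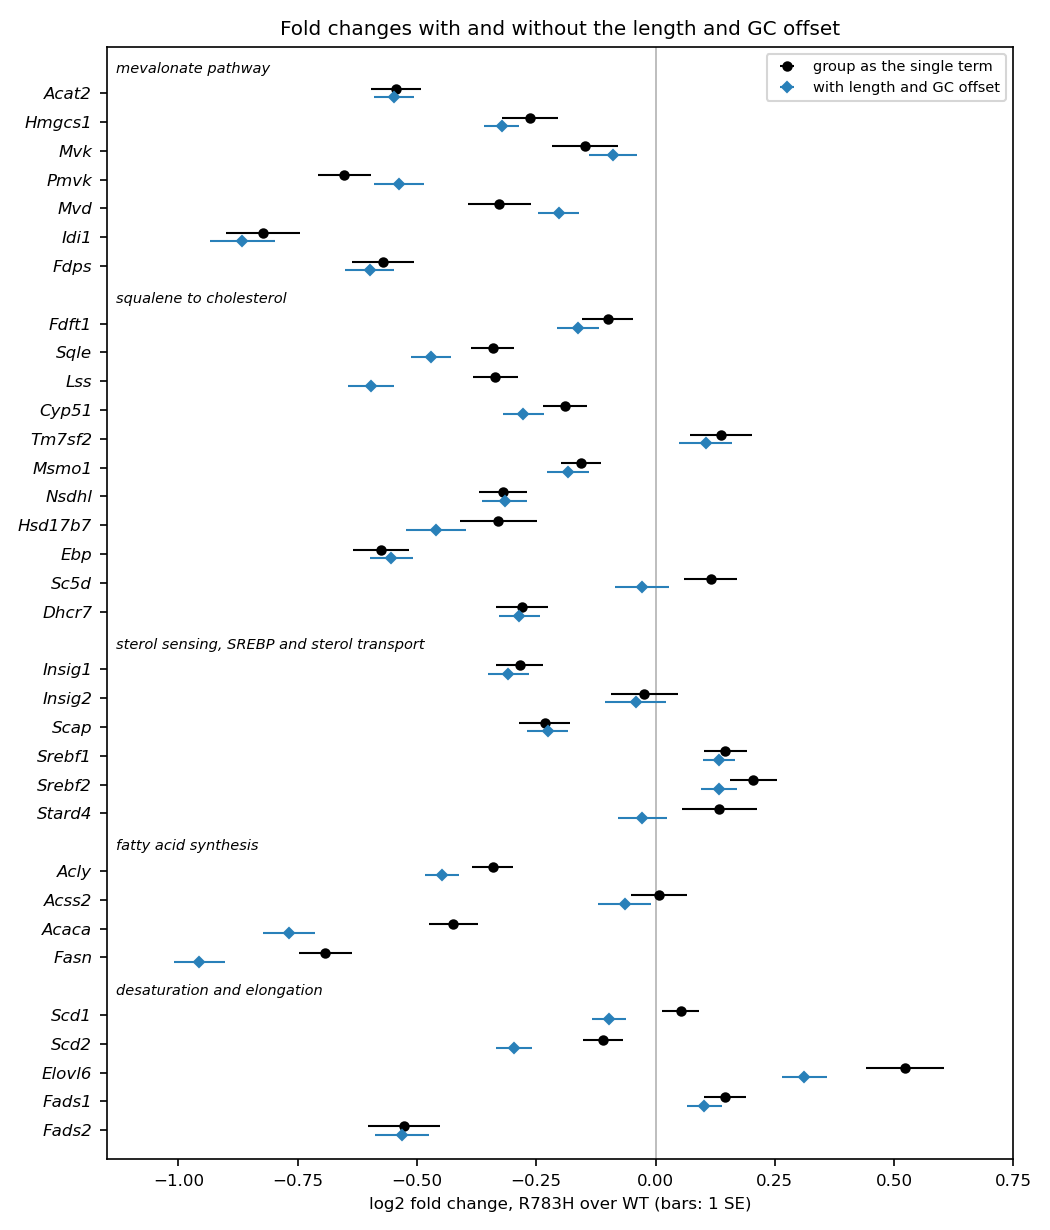
Log2 fold change of R783H over WT for each of the 33 genes, with bars of 1 SE from edgeR's quasi-likelihood fits. Black circles show the fit with group as the single term, and blue diamonds show the fit with the length and GC offset. In the first fit, the 14 sterol synthesis genes called lower run from -0.82 (Idi1) to -0.16 (Msmo1). The 4 genes called higher in that fit run from 0.15 (Srebf1 and Fads1) to 0.52 (Elovl6).

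The 6 genes of sterol sensing, SREBP and sterol transport did not move one way, with a median log2 fold change of 0.06. Among them 2 were called higher and 2 lower (33.3% each, beside 33.5% and 30.9% of all tested genes), and 2 were not called. Srebf2, whose product SREBP-2 mainly drives sterol synthesis genes, rose by 15.3%. It was at 396.2, 438.1 and 395.8 CPM in R783H A, B and C and at 365.8, 356.5 and 345.0 CPM in WT A, B and C (log2 fold change 0.20, SE 0.05, adjusted p = 0.00370). The groups did not overlap, and R783H B was the highest library. Without R783H B the log2 fold change was 0.13, and Srebf2 was still called higher (adjusted p = 0.00235). Srebf1, whose products mainly drive fatty acid synthesis genes, was at 195.7, 207.5 and 194.6 CPM in R783H and 185.0, 180.7 and 174.4 CPM in WT. It rose by 10.7% (log2 fold change 0.15, SE 0.04, adjusted p = 0.0138). Without R783H B, its highest library, the log2 fold change was 0.09 and Srebf1 was still called (adjusted p = 0.0306), and with scaling by library size alone it was 0.23. The call was lost with DESeq2 (adjusted p = 0.0528), without WT B (0.0541) and without WT C (0.0673).

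Insig1, the SREBP-induced protein that retains SCAP, was at 112.2, 112.5 and 117.3 CPM in R783H and 133.3, 136.2 and 147.1 CPM in WT. It fell by 17.9% (log2 fold change -0.28, SE 0.05, adjusted p = 3.94e-04), with every R783H library below every WT library. Insig2, its paralogue, was at 24.7 to 26.5 CPM in R783H and 23.8 to 27.7 CPM in WT and was not called (log2 fold change -0.02, SE 0.07, adjusted p = 0.788). Scap, the SREBP escort protein, fell by 0.23 on the log2 scale (SE 0.05, adjusted p = 0.00254), or by 0.15 with scaling by library size alone (adjusted p = 0.0236). Stard4, a cytosolic sterol carrier, was at 55.1 to 64.1 CPM in R783H and 50.4 to 61.3 CPM in WT, and these overlapping groups gave no call (log2 fold change 0.13, SE 0.08, adjusted p = 0.157). Without R783H B or without WT C, Stard4 was called higher (log2 fold changes 0.18 and 0.21).

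Of the 4 fatty acid synthesis genes, 3 were called lower (75%, beside 30.9% of all tested genes) and 1 was not called. Fasn, the fatty acid synthase that makes palmitate, was the most highly counted of the 4 and fell most. It was at 716.2, 827.8 and 746.2 CPM in R783H A, B and C and at 1282, 1229 and 1189 CPM in WT A, B and C. It fell by 38.1% (log2 fold change -0.69, SE 0.06, adjusted p = 1.44e-06), and the highest R783H library was far below the lowest WT library. Acaca, the acetyl-CoA carboxylase that makes malonyl-CoA, was at 58.8 to 65.0 CPM in R783H and 81.1 to 83.9 CPM in WT (log2 fold change -0.42, SE 0.05, adjusted p = 2.70e-05). A near-identical copy, Gm5182, shares 6118 aligned nt at 99.2% identity with Acaca, so its counts are uncertain. Acly, which makes cytosolic acetyl-CoA from citrate, was at 635.6 to 684.1 CPM in R783H and 809.0 to 838.6 CPM in WT (log2 fold change -0.34, SE 0.04, adjusted p = 3.89e-05). Acss2, which makes acetyl-CoA from acetate, was at 24.6 to 25.8 CPM in R783H and 24.1 to 25.4 CPM in WT and was not called (log2 fold change 0.01, SE 0.06, adjusted p = 0.917). Whether Acly and Acss2 differ in their change was not tested.

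Of the 5 desaturase and elongase genes, 2 were called higher and 2 lower (40% each, beside 33.5% and 30.9% of all tested genes). The other 1 was not called. Elovl6, the elongase that extends palmitate, rose most of all 33 genes. It was at 251.7, 204.7 and 263.1 CPM in R783H A, B and C and at 157.6, 168.0 and 175.2 CPM in WT A, B and C (log2 fold change 0.52, SE 0.08, adjusted p = 1.91e-04). R783H B was well below the other R783H libraries but above every WT library. Fads2 and Fads1 encode the front-end desaturases of polyunsaturated fatty acids, and they moved in opposite directions. Fads2 was at 64.3, 79.9 and 66.9 CPM in R783H and 106.4, 97.98 and 99.9 CPM in WT, and fell by 30.6% (log2 fold change -0.53, SE 0.08, adjusted p = 9.57e-05). Fads1 was at 148.4, 160.9 and 155.7 CPM in R783H and 139.6 to 140.9 CPM in WT, and rose by 10.6% (log2 fold change 0.15, SE 0.04, adjusted p = 0.0132). Without R783H B, its highest library, the log2 fold change was 0.10 and Fads1 was still called (adjusted p = 0.0323), and with scaling by library size alone it was 0.23. The Fads1 call was lost with DESeq2, without R783H C and without WT B (adjusted p = 0.0563, 0.0624 and 0.0587).

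Scd1 and Scd2 encode stearoyl-CoA desaturases, which make monounsaturated fatty acids. Scd2 was at 1412 to 1484 CPM in R783H and 1544 to 1623 CPM in WT and was called lower (log2 fold change -0.11, SE 0.04, adjusted p = 0.0354). This small difference lost its call under 8 of the 16 alternative settings, with adjusted p up to 0.537 under scaling by library size alone. Scd1 was at 379.5 to 394.1 CPM in R783H and 368.6 to 378.5 CPM in WT, without overlap, and was not called (log2 fold change 0.05, SE 0.04, adjusted p = 0.253). With scaling by library size alone Scd1 was called higher (log2 fold change 0.13, adjusted p = 0.00836).

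Ratios of related genes within a library do not depend on how libraries are scaled. The count ratio of Fads1 to Fads2 was 2.31, 2.01 and 2.33 in R783H A, B and C and 1.32, 1.43 and 1.397 in WT A, B and C, a difference of 0.68 on the log2 scale. The ratio of Insig1 to Insig2 was 4.54, 4.25 and 4.49 in R783H and 5.60, 5.05 and 5.30 in WT (difference -0.26). The ratio of Scd1 to Scd2 was 0.269, 0.262 and 0.267 in R783H and 0.242, 0.237 and 0.233 in WT (difference 0.16). The ratio of Srebf1 to Srebf2 was 0.494, 0.474 and 0.492 in R783H and 0.506, 0.507 and 0.506 in WT (difference -0.06). In none of these 4 pairs did the groups overlap. Each 2-sided exact permutation test gave p = 0.1, before and after adjustment over the 4 pairs, the smallest value that 3 libraries against 3 allow, so no pair could pass a threshold of 0.05. Scd1 and Scd2 both lie on chromosome 19 of GRCm38.p6 (44394450-44407709 and 44293676-44306864), and so do Fads1 and Fads2 (10182877-10196874 and 10062765-10101503).

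**Figure D3:**
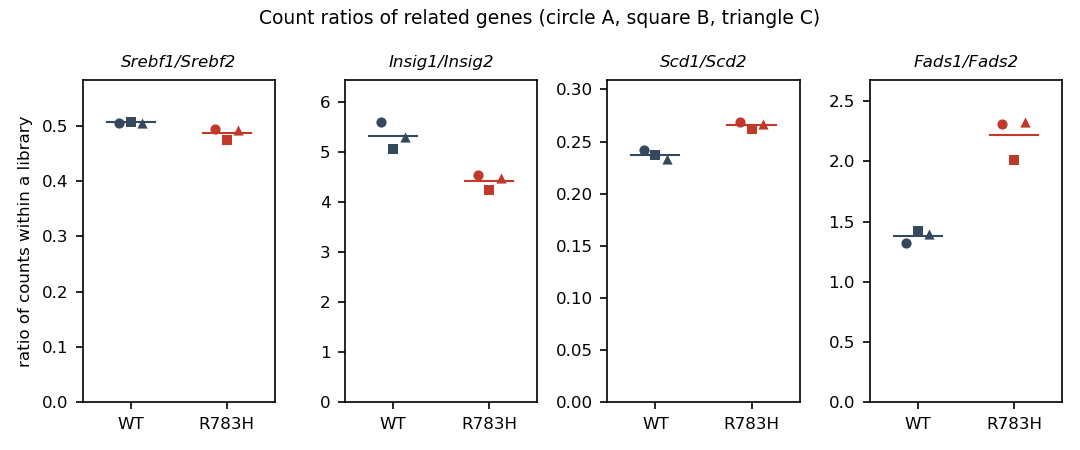
Ratio of the counts of 2 related genes within each library, for 4 gene pairs, with 1 symbol for each replicate letter and a line at the group mean. The 3 R783H libraries lie above the WT libraries for Fads1/Fads2 (2.01 to 2.33 against 1.32 to 1.43) and Scd1/Scd2, and below them for Insig1/Insig2 and Srebf1/Srebf2.

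Between genes, levels were compared per kilobase of the longest GENCODE M21 transcript. In WT the highest levels were those of Scd2 (288.4 CPM per kb), Acly (186.8 CPM per kb) and Fasn (122.7 CPM per kb). Scd1, Hmgcs1 and Srebf2 followed at 77.3, 70.3 and 70.1 CPM per kb. The lowest levels in WT were those of Idi1 (5.92 CPM per kb), Sc5d (6.57 CPM per kb) and Hsd17b7 (6.71 CPM per kb). In R783H, Fasn stood at 76.0 CPM per kb, below Scd1 (80.2 CPM per kb) and Srebf2 (80.8 CPM per kb). By group mean, both Srebf2 and Scd1 were thus below Fasn in WT and above it in R783H. This order of levels was not tested. In R783H B, where Fasn was at 827.8 CPM, Scd1 was below Fasn per kilobase.

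R783H B, the library that stood apart, was the highest of the 3 R783H libraries for 25 of the 33 genes (75.8%), beside 40.5% of all tested genes. R783H A was the lowest of the 3 for 20 of the 33 (60.6%), beside 28.6% of all tested genes. For most genes called lower, R783H B was therefore the R783H library closest to WT. On the log2 scale it exceeded the mean of A and C by 0.28 for Fads2, 0.24 for Mvd, 0.21 for Fdps and 0.18 for Fasn. It lay below that mean for Elovl6 (-0.33), Stard4 (-0.21), Hmgcs1 (-0.18) and Idi1 (-0.14). Without R783H B, 23 of the 33 genes were called lower (34.3% of all genes tested in that fit were) and 5 higher (34.7% of all).

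Transcript length moved with the fold changes. Across the 13552 tested genes with a transcript, Spearman's rho between length and log2 fold change was 0.24, and across the 33 genes it was 0.29, genes not being independent replicates. The median length was 3609 nt for the 33 genes and 3261 nt for all tested genes. With an offset for length and GC content in each library, 23 of the 33 genes were called lower (37.3% of all genes in that fit) and 4 higher (30.4% of all), with a median log2 fold change of -0.29 beside -0.04 for all genes. Long transcripts moved most: Fasn went from -0.69 to -0.96, Acaca from -0.42 to -0.77, Lss from -0.34 to -0.60 and Scd2 from -0.11 to -0.30 on the log2 scale. Elovl6 went from 0.52 to 0.31, Srebf2 from 0.20 to 0.13 and Mvd from -0.33 to -0.20, and all 3 kept their calls. Scd1 was called lower in that fit (log2 fold change -0.10, adjusted p = 0.0233), and Fdft1 was called lower too (log2 fold change -0.16, adjusted p = 0.00399).

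Other genes of the same metabolism were grouped into 7 lists. Of 12 other genes of sterol and isoprenoid synthesis, 5 were called lower (41.7%, beside 30.9% of all tested genes) and 3 higher (25%, beside 33.5%), with a median log2 fold change of -0.12. With the length and GC offset 8 were called lower. Pdss1, which builds the isoprenoid tail of coenzyme Q, fell by 0.41 (SE 0.06), and Acat1, the mitochondrial thiolase of ketone metabolism, rose by 0.40 (SE 0.06) on the log2 scale.

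Of 11 genes of SREBP processing and sterol-regulated degradation, 5 were called higher (45.5%, beside 33.5% of all tested genes) and 3 lower (27.3%, beside 30.9%), with a median of 0.13. With the length and GC offset only 2 were called higher. Tmem97, a sterol-responsive membrane protein that binds NPC1, fell by 0.93 on the log2 scale (SE 0.06), to 56.4 ± 3.86 CPM beside 107.6 ± 3.23 CPM in WT (SD, n = 3). A near-identical copy, Gm5809, makes its counts uncertain. Rnf145, a sterol-responsive ubiquitin ligase, fell by 0.55 on the log2 scale (SE 0.05). Mbtps2, the protease that makes the second SREBP cleavage, rose by 0.40 (SE 0.08), but shares up to 2867 nt of exon with Yy2 on the same strand. Of 14 tested genes of sterol uptake and transport, 7 were called higher (50%) and 2 lower (14.3%), or 1 lower without WT A, with a median of 0.16. Vldlr, a lipoprotein receptor, had 89, 87 and 104 counts in R783H and 21, 22 and 14 in WT (log2 fold change 1.88, SE 0.19, adjusted p = 8.40e-06). Mylip, an LXR-induced ligase that degrades lipoprotein receptors, rose by 0.78 (SE 0.12).

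**Figure D4:**
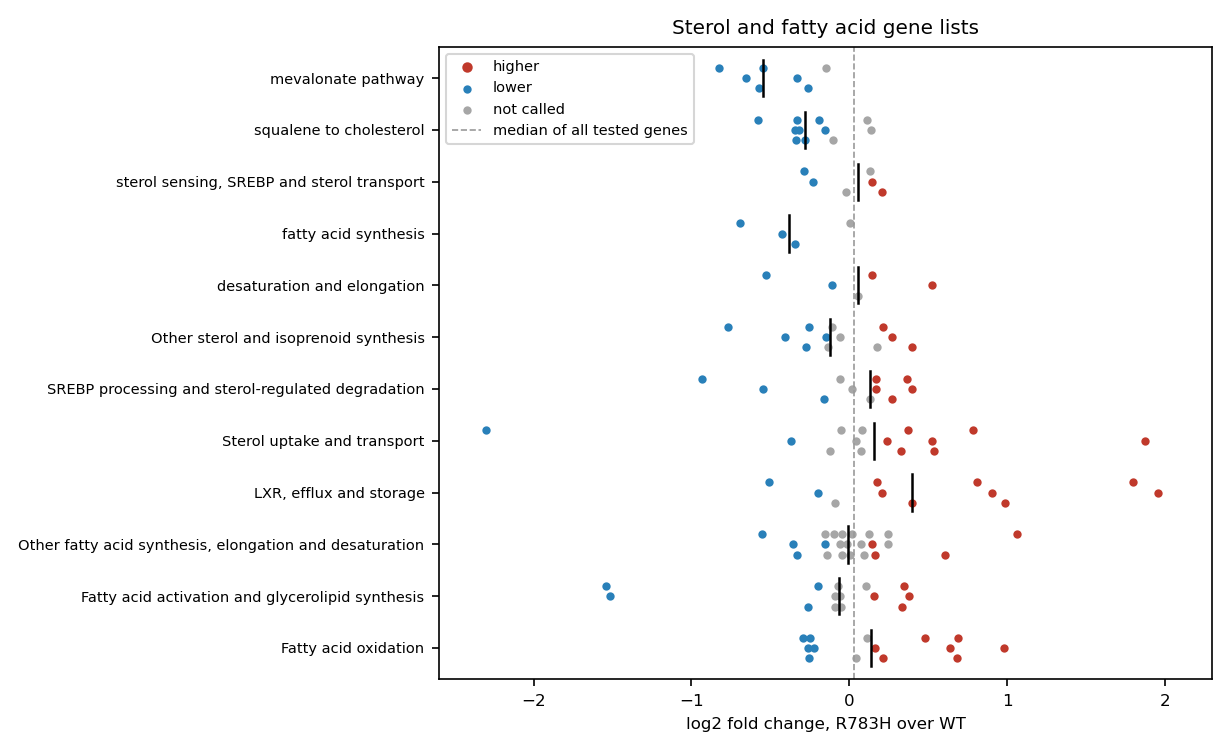
Log2 fold change of R783H over WT for every tested gene of the 5 role groups of the 33 genes and of the 7 other lists, coloured by call, with a black bar at each list's median and a dashed line at the median of all tested genes. The medians of the mevalonate pathway (-0.54), squalene to cholesterol (-0.28) and fatty acid synthesis (-0.38) groups lie left of the dashed line (0.03), and that of the LXR, efflux and storage list (0.40) lies to its right.

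The list of other fatty acid synthesis, elongation and desaturation held 22 tested genes, with a median log2 fold change of -0.01. Of these, 4 were called higher and 4 lower (18.2% each, beside 33.5% and 30.9% of all tested genes), and 14 were not called. The count of genes called higher was 2 with relative log expression factors, with DESeq2 and without R783H C, WT A or WT C. Me1, the malic enzyme that makes NADPH for fatty acid synthesis, rose by 0.61 on the log2 scale (SE 0.05), to 92.9 ± 1.95 CPM beside 61.0 ± 2.98 CPM in WT (SD, n = 3), though near-identical copies make its counts uncertain. Elovl7, an elongase of saturated fatty acids, rose by 1.06 (SE 0.10), and Elovl2, an elongase of polyunsaturated fatty acids, fell by 0.56 (SE 0.15) on the log2 scale. Of 14 genes of fatty acid activation and glycerolipid synthesis, 4 were called higher and 4 lower (28.6% each, near the shares of all tested genes). With the length and GC offset 7 of them were called lower, and without WT C 2 were called higher. Dgat2, which makes triglyceride, had 34, 13 and 36 counts in R783H and 52, 69 and 61 in WT (log2 fold change -1.54, SE 0.26). Acsl5, an acyl-CoA synthetase, had 39, 43 and 30 counts in R783H and 71, 89 and 81 in WT (log2 fold change -1.52, SE 0.17). It shares 167 nt of exon with Zdhhc6 on the opposite strand, so its counts are uncertain. Acsl6, another acyl-CoA synthetase, had a log2 fold change of 0.38 (SE 0.13, adjusted p = 0.0215). Its call was lost with the length and GC offset (adjusted p = 0.205), at equal depth (0.0954), without R783H A (0.114) and without WT C (0.0897).

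Markers of other cell types were low beside the naive mESC markers, and some lists moved with the genotype. The summed level of 4 trophoblast markers was 41.8 to 47.3 CPM in R783H and 74.0 to 80.0 CPM in WT, and all 3 that could be tested (Cdx2, Eomes and Tfap2c) were called lower. Elf5, a defining trophoblast marker, had 0 counts in every R783H library and at most 2 counts in a WT library. The summed level of 12 endoderm markers was 10.04 to 10.8 CPM in R783H and 5.71 to 8.07 CPM in WT, of which 5 were tested, 2 called higher and 1 lower, and Afp was at 0 counts in all 6 libraries. For 8 fibroblast markers the sums were 11.8 to 11.9 and 10.8 to 11.8 CPM, with 1 of 4 tested called higher and 1 lower. For 4 neural progenitor markers they were 34.3 to 37.3 and 32.9 to 33.1 CPM, with 1 of 3 tested called higher and 1 lower. The part of such cells in the results above was not tested.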

How the data were processed

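The authors deposited a table of whole-number read counts per gene, with Entrez identifiers and a column for each of 6 libraries. Per the submitters' processing notes, CASAVA 1.4, HISAT2, SAMtools and mm10 were used. The counting tool, its annotation and its use of strand are not given in the sources used here, so reads of overlapping or near-identical genes (98% identity over at least 100 nt in BLAST 2.17.0) cannot be assigned with certainty. Some of the 33 genes share exons or near-identical stretches. They are Acaca, Acat2, Acss2, Cyp51, Elovl6, Fdft1, Fdps, Hmgcs1, Idi1, Insig1, Lss, Msmo1, Scap, Scd2, Srebf1 and Tm7sf2. Among other genes named here, Acsl5, Acsl6, Mbtps2, Me1, Nr1h3, Pdss1, Tmem97 and Trim71 share such stretches too.

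Symbols and promoter windows came from RefSeq on GRCm38.p6, and 25275 identifiers had a symbol. Counts were tested in edgeR 4.0.16 (R 4.3.3, limma 3.58.1) with TMM factors, default filterByExpr (minimum count 10, total 15) and the quasi-likelihood F-test, 2-sided, with group as the sole term and Benjamini-Hochberg adjustment over 14199 genes. DESeq2 1.42.0 was an alternative among 16. The scripts were tested on simulated data. Groups and letters came from the sample titles. No label says that letters A, B and C pair libraries, so they were not treated as pairs in the main fit. Deviations from the group mean correlated at -0.07, 0.01 and 0.09 for the same letter and from -0.13 to 0.13 for different letters. With 3 libraries in each group, these values cannot show whether the letters pair libraries.

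The genes, lists and tests were chosen with earlier results of these data known. All 33 genes were named, with values in every library where the called log2 fold change was at least 0.5 in size, and for Srebf1, Srebf2, Insig1, Fasn, Hmgcs1 and Sqle. In every other list up to 3 called genes with the largest change were named, and others are marked as picked after their values were seen. Some genes of these lists are counted but not reported by name here.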

Additional observations from a re-analysis of the deposited data

How the results depend on the processing

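Under the 16 alternatives (other scaling, filters and tools, the replicate block, equal depth, the length and GC offset and each library left out in turn), the number of the 33 genes called lower stayed between 18 and 23, against 21. The number called higher, 4, was 8 with scaling by library size alone and 2 with DESeq2, and ran from 2 (without WT B) to 5 (without R783H B) with a library left out. The median log2 fold change, -0.26, was -0.18 with library size alone, which moved the median of all tested genes from 0.03 to 0.11 and the called shares to 40.0% higher and 25.4% lower. With a library left out it ran from -0.29 to -0.24. With the replicate letter as a block, 4 genes were called higher and 20 lower, the median was -0.26, and among the 33 genes the block changed the call of Scd2 alone. Of the 25 calls, 20 held under all 16 alternatives, the exceptions being Cyp51, Msmo1, Srebf1, Scd2 and Fads1. Of the 8 uncalled genes, Insig2 and Acss2 stayed uncalled under all 16. Reversals came with the length and GC offset: Scd1 went to -0.10 and Trim71 to -0.27 (adjusted p = 0.00190). The causes were not tested. Depth was low for Cyp46a1, Cyp27a1, Ppara, Nr1h3, Dgat2 and Acsl5, which had fewer than 100 counts in every library.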

Other observations

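Most tested genes in a list of LXR signalling, sterol efflux and storage were called higher in R783H cells. LXRs are nuclear receptors activated by oxysterols, and their known targets include Abca1, Abcg1 and Apoe. Of 11 tested genes of this list, 8 were called higher (72.7%, beside 33.5% of all tested genes) and 2 lower (18.2%, beside 30.9%), and the median log2 fold change was 0.40. Picked after their values were seen, the LXR genes did not rise. Nr1h2 was called lower (log2 fold change -0.20, SE 0.05), and Nr1h3 was not called (log2 fold change -0.09, SE 0.19). With the length and GC offset 1 gene of the list, Abca1, was called lower. Abcg1, a cholesterol exporter, rose by 0.99 on the log2 scale (SE 0.09), to 20.01 ± 0.610 CPM beside 10.1 ± 1.11 CPM in WT (SD, n = 3). Cyp27a1 and Cyp46a1, enzymes that make oxysterols, had few counts: Cyp27a1 had 59, 33 and 34 in R783H and 10, 5 and 9 in WT, and Cyp46a1 had 20, 16 and 16 in R783H and 3, 6 and 2 in WT. Both were called higher (edgeR's quasi-likelihood test, adjusted p = 6.31e-04 and 0.00195). Picked after their values were seen, Apoe, a lipoprotein component, rose by 0.81 on the log2 scale (SE 0.05), to 941.3 ± 59.3 CPM beside 536.9 ± 26.2 CPM in WT (SD, n = 3), while Abca1, another exporter, fell by 0.51 on the log2 scale (SE 0.06). The members of this list that are known LXR targets thus did not move one way.

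Of 14 genes of fatty acid oxidation, 7 were called higher (50%, beside 33.5% of all tested genes) and 5 lower (35.7%, beside 30.9%), and the median log2 fold change was 0.14. With scaling by library size alone 3 were called lower. Cpt2, the inner carnitine palmitoyltransferase of mitochondria, rose by 0.98 on the log2 scale (SE 0.08), to 22.0 ± 1.65 CPM beside 11.2 ± 0.605 CPM in WT (SD, n = 3). Ppara, a nuclear receptor that induces oxidation genes, had 36, 26 and 37 counts in R783H and 11, 17 and 18 in WT (log2 fold change 0.69, SE 0.25, edgeR adjusted p = 0.0319). Its call was lost with DESeq2 (adjusted p = 0.131), without R783H A (0.0892) or R783H C (0.0987), and without WT A (0.118) or WT B (0.0846).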
